A study of Mus musculus with 24 samples.

Results

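Livers of mice homozygous for a deletion in Nudt12 were compared with livers of wild-type mice collected in the active phase of the day, the hours in which mice move and feed. The comparison used every time-course liver labelled with a zeitgeber time (ZT, hours after the lights come on) of 0, 16 or 20, which is 6 of the 24 samples listed for the series. The Nudt12-/- group had 1 library at each of ZT0, ZT16 and ZT20, and the wild-type group had 1 library at each of the same times. ZT16 and ZT20 lie in the dark period, and ZT0 is its end. The series as a whole measured RNA from liver and kidney of both genotypes. The allele was made with Cas9 and a pair of guide RNAs in B6D2F1/J hybrid embryos, which carry C57BL/6J and DBA/2J alleles, and the founders were crossed with C57BL/6J mice. One line was kept, with 58 bp deleted from exon 6. All mice of the time course were 4 to 6 months old and had 10 days to adapt to a cycle of 12 h of light and 12 h of dark, and the labels give neither the sex nor the number of backcrosses. The 6 libraries of ZT4, ZT8 and ZT12, called the rest phase here, came from the same time course and served for comparison.

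NUDT12, a member of the nudix hydrolase family, cleaves NADH and NAD in peroxisomes and cytoplasm and can remove the NAD cap that some RNAs carry at their start. The liver clock is a feedback loop in which BMAL1 (gene Arntl) and CLOCK switch on the Per, Cry and Nr1d genes, whose products then switch BMAL1 activity and Arntl off. Through this loop and through feeding, the liver times the synthesis of fatty acids, cholesterol, bile acids and NAD over the day.

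The exon that carries the deletion is shown because it holds most of the catalytic nudix box. Exon 6 of 7 lies on the minus strand of GRCm38 at chr17:59003329-59003528, within the gene at chr17:58999618-59013372, and has 200 bases. The nudix box spans 23 codons, residues 355 to 377 of 462, and 16 of its 69 bases lie in exon 5. Capitals mark the bases of the box that lie in exon 6, bases 1 to 53. The labels do not say which 58 bases of the exon were deleted.
Nudt12 exon 6: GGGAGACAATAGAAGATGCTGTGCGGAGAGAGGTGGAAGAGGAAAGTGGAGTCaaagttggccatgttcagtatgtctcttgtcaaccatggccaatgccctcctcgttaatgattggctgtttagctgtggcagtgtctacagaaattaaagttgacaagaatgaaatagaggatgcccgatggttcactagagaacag

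Transcripts of other tissues differed between the livers, and these values come before the results because they touch several of them. Deposited values summed to 17.94 to 19.86 M (mega, 1e+06 normalized counts) in the 6 active-phase libraries and to 16.85 to 19.09 M in the 6 of the rest phase. Because the values were already normalized, these sums are not sequencing depths. Albumin (Alb) stood at 557224, 871581 and 758616 normalized counts in the knockout livers of ZT0, ZT16 and ZT20, against 667472, 827009 and 967243 in the wild-type livers, so the defining hepatocyte transcript was abundant in every library. Secreted enzymes of pancreatic acinar cells took 0.01098, 0.1602 and 0.7076% of the knockout libraries of ZT0, ZT16 and ZT20. In the wild-type libraries of the same times they took 0.07563, 0.002667 and 0.00371%, and in the 6 rest-phase libraries 0.002426 to 0.003568%. Knockout ZT16 and ZT20 and wild-type ZT0 were thus well above the rest-phase livers, knockout ZT0 was above them by less, and wild-type ZT16 and ZT20 were near them. Cela1, a member of this list, was listed at 422.8 or more in all 12 livers and made up most of the low sums. It was 687.4 of 728.7 normalized counts in wild-type ZT20, and 773.0 of 1988 in knockout ZT0. The pancreatic amylase Amy2a3 was listed at 155.6, 10225 and 36698 in the knockout livers, against 1284, 0.853 and 0 in the wild-type livers. Pancreatic lipase (Pnlip) was listed at 114.3, 2366 and 9724 in the knockout livers, against 1123, 0 and 0 in the wild-type livers. Pancreatic duplicates of Amy2a3 share its sequence, so the split of reads between amylase genes is uncertain. The acinar transcription factor Rbpjl was listed at 3.71, 12.5 and 61.0 in the knockout livers and at 5.81, 0 and 0 in the wild-type livers, whereas Ptf1a was above 0 only in knockout ZT20 of the 12 libraries, at 1.08.

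**Figure D1:**
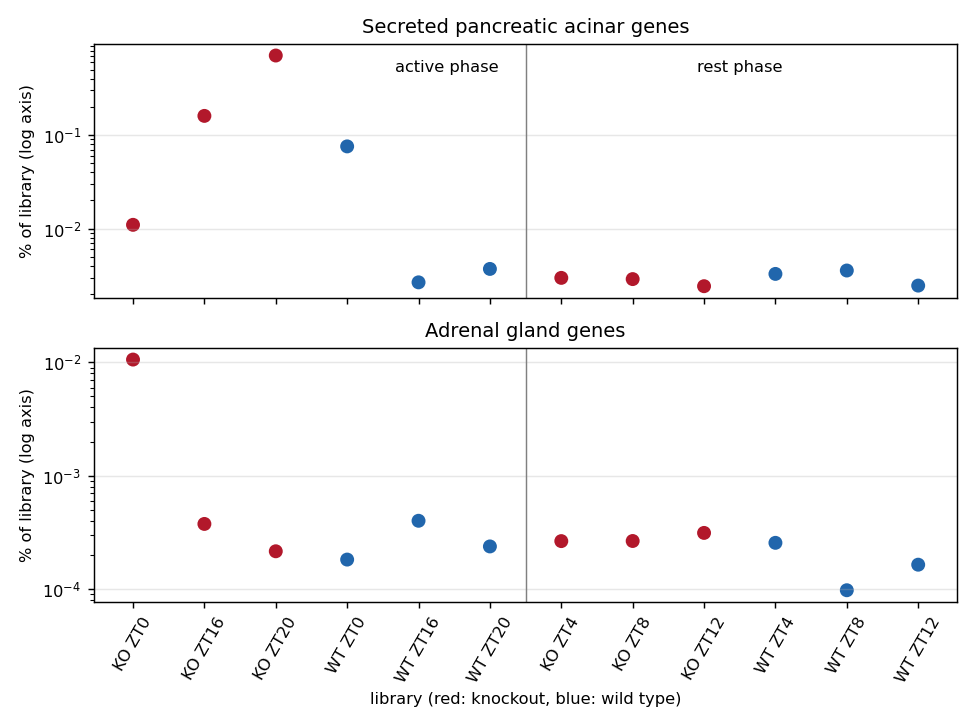
Share of each library (percent, log axis) taken by secreted pancreatic acinar genes (top) and by adrenal gland genes (bottom), 1 point per liver library, knockout in red and wild type in blue, active phase left and rest phase right. Knockout ZT20 reached 0.7076% for pancreatic genes, and knockout ZT0 stood alone for adrenal genes at 0.01058%.

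The knockout library of ZT0 also held transcripts of adrenal gland and fat. The 13 adrenal genes, a list chosen after these values were seen, summed to 1916 normalized counts in knockout ZT0 and to 18.23 to 75.54 in the other 11 libraries. Star, which feeds cholesterol into steroid synthesis, was listed at 635.3, 22.1 and 10.1 in the knockout livers, against 14.5, 8.48 and 14.2 in the wild-type livers. The adrenal hydroxylase Cyp11b1 was listed at 184.5 in knockout ZT0 and at 0 in the other 5 active-phase libraries. Th and Dbh, enzymes of catecholamine synthesis in the adrenal medulla, followed the same pattern at 13.0 and 11.4. The fat-cell protease Cfd (adipsin) was listed at 135.8, 24.3 and 43.7 in the knockout livers and at 17.8, 1.64 and 12.4 in the wild-type livers, and Ucp1, of brown fat, at 50.8, 6.17 and 0 against 0 in all 3 wild-type livers. In the rest phase Cfd ran from 8.08 to 40.1 in the knockout livers and from 4.49 to 36.9 in the wild-type livers, so knockout ZT16 and ZT20 were within or near that range and knockout ZT0 was above it. Of the 10 adipocyte genes tested, 9 had a higher fitted level in the knockout and 7 were higher in 3 of 3 pairs (background over all genes 11.5%), with a median log2 difference of 1.90. Members near 0 in the wild type, such as Ucp1, reached the filter's mean of at least 1 only through the knockout libraries. No adipocyte gene passed the threshold (limma). Of the 10, 7 had an unadjusted p under 0.05 (all genes 5.28%), 6 of them higher (all genes 2.58%). The remaining one was Car3, a carbonic anhydrase that hepatocytes also express and that makes up nearly all of the list's sum, at 65843, 57649 and 34221 in the knockout livers, against 97139, 65822 and 73277 in the wild-type livers. In bulk tissue, a change in the number of cells of a type and a change in RNA per cell cannot be told apart. The part of pancreatic, adrenal and fat transcripts in the results below was not tested beyond leaving out a pair or the pancreatic genes.

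Across all genes, few differences between knockout and wild-type livers passed the test. Of 18622 genes tested in pairs of the same time with limma, on log2(normalized count + 1) with Benjamini-Hochberg adjustment, 4 passed an adjusted p of 0.05 (0.0215%). Nudt12 fell, and the major urinary protein genes Mup19 and Mup12 and the ribosomal protein pseudogene Rpl23a-ps3 rose. Nudt12 was 0.00537% of the genes tested, and the 3 genes that rose were 0.0161%. An unadjusted p under 0.05 was found for 983 genes (5.28%), 481 of them higher (2.58%) and 502 lower (2.7%). The median log2 difference over all genes was -0.003. The labels do not say how the 6 livers relate to each other beyond genotype and time, so the p-values measure the spread between these libraries. The count was 42 without the ZT0 pair, 10 without the ZT16 pair and 3 without the ZT20 pair, and 0 with no trend in the prior variance or with a spread shared over the 12 livers.

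Nudt12 fell to 23.32% of the wild-type level. It was listed at 199.6, 193.3 and 254.4 normalized counts in the knockout livers of ZT0, ZT16 and ZT20, against 981.9, 879.1 and 914.9 in the wild-type livers. The 3 knockout livers were all low and the 3 wild-type livers all high, with no overlap. The means were 215.8 ± 33.6 in the knockout and 925.3 ± 52.1 in the wild type (SD, n = 3 each), the log2 difference was -2.10 (SE 0.15) and limma gave an adjusted p of 0.0446. By pair the knockout held 20.33% of the wild-type level at ZT0, 21.99% at ZT16 and 27.81% at ZT20. An exact sign-flip test over 3 pairs gave p = 0.25 (two-sided), the smallest that 3 pairs allow. In the rest phase the knockout was lower as well, with log2 differences of -2.73 at ZT4, -1.27 at ZT8 and -2.73 at ZT12. The direction stayed under every alternative tried. The call was lost without the ZT20 pair (adjusted p 0.111), with a mean of at least 10 required (0.064), with no trend in the prior variance (0.795), with the spread shared over 12 livers (0.666) and with the major urinary protein genes left out (0.0858).

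Mup19 and Mup12 encode major urinary proteins, small lipocalins that male mouse liver secretes in bulk and that carry pheromones in urine. Mup19 (chr4:61778324-61782269, minus strand) was listed at 118746, 167558 and 61885 normalized counts in the knockout livers, and at 0 in all 3 wild-type livers. Because the wild-type values are 0, its fitted log2 difference of 16.71 (SE 0.28, limma adjusted p 3.68e-05) depends on the pseudocount and is no measure of fold. Mup12 (chr4:60737383-60741326, minus strand) was listed at 17769, 19608 and 14777 in the knockout livers, against 402.7, 348.0 and 251.3 in the wild-type livers. The groups were far apart, with a log2 difference of 5.71 (SE 0.13, limma adjusted p 8.66e-05).

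The genotypes did not keep this pattern at the other times of day. Mup19 was listed at 67626, 0 and 130741 in the knockout livers of ZT4, ZT8 and ZT12, against 139369, 134559 and 272835 in the wild-type livers. Mup12 was listed at 11197, 383.7 and 10349 in the knockout livers of those times, against 12281, 13738 and 16029 in the wild-type livers. Over the 12 livers, both genes were thus low in the same 4, the 3 wild-type livers of the active phase and knockout ZT8, and high in the other 8 of both genotypes. This grouping crosses genotype, and the labels do not give the strain background of single mice. Whether the calls of Mup19 and Mup12 follow the Nudt12 deletion or another difference between these mice or libraries cannot be told apart here. Mup15 was listed at 130394, 30060 and 18538 in the knockout livers of the active phase, against 0, 785.5 and 41.9 in the wild-type livers, and did not pass (limma adjusted p 0.936). Its log2 differences were 0.19 at ZT4, -8.27 at ZT8 and 0.10 at ZT12.

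The Mup genes are close copies, and the start of their coding sequence is shown for Mup19, Mup12 and 4 copies that differ from Mup19 at few bases, so that they can be compared base by base. It gives coding bases 4 to 93, counted from the start codon, on the minus strand of chromosome 4 in GRCm38, from the GENCODE vM21 transcripts. Capitals mark bases that differ from Mup19.
Mup19: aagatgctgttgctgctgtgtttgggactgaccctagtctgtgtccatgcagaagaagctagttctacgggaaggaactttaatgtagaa
Mup12: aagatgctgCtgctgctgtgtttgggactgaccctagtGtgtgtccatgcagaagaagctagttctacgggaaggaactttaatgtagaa
Mup15: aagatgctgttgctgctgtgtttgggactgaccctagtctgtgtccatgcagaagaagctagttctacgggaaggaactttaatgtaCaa
Mup9: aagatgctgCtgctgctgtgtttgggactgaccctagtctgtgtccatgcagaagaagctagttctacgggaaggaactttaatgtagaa
Mup1: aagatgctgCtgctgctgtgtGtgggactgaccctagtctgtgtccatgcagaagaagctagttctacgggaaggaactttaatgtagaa
Mup14: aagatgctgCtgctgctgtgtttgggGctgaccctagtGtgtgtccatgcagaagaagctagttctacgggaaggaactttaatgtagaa

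Over 540 coding bases, identity to Mup19 was 99.81% for Mup9, 99.44% for Mup15, 99.26% for Mup12 and Mup1, and 99.07% for Mup14. The reads had 100 bases, and no stretch of 100 bases of the Mup19 transcripts was found in no other gene (0% unique, with 75.34% shared with Mup9). The unique share was 2.66% for Mup15, 22.49% for Mup12, 24.26% for Mup14, 28.11% for Mup9 and 44.32% for Mup1. The assignment of reads to single Mup genes, and so each value given for them, is uncertain.

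Across the family the differences ran both ways. The cluster at chr4:59956804-62150863 holds 46 Mup genes and pseudogenes, of which 39 were tested. Of these, 15 were higher in the knockout in 3 of 3 pairs (all genes 11.5%) and 6 were lower (all genes 12.9%), and the median log2 difference was 0.38. Mup14, Mup11, Mup20 and Mup16 were higher in every pair, with log2 differences of 1.81, 2.18, 2.29 and 1.14 and limma adjusted p-values of 0.333 to 0.648. Mup20, also called darcin, was listed at 103276, 132255 and 101002 in the knockout livers and at 33558, 12399 and 28627 in the wild-type livers. Mup9 ran the other way, at 566760, 41442 and 365667 in the knockout livers, against 869141, 618200 and 661715 in the wild-type livers. Mup1 did so as well, at 399655, 69771 and 285134 in the knockout livers, against 625201, 556836 and 650740 in the wild-type livers. The knockout liver of ZT16 was lowest for both genes, and the groups did not overlap for either. All Mup genes and pseudogenes together took 14.16, 6.53 and 7.93% of the knockout libraries, against 11.93, 8.58 and 9.5% of the wild-type libraries, so the summed level overlapped between the genotypes.

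**Figure D2:**
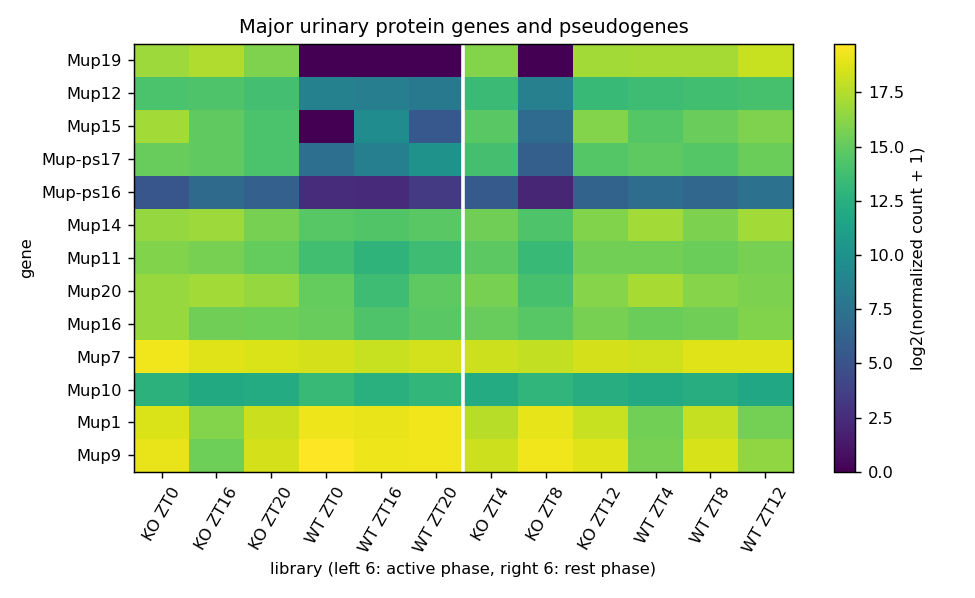
Heat map of log2(normalized count + 1) for major urinary protein genes and pseudogenes (rows) in the 12 livers of the time course (columns), active phase left of the white line and rest phase right, knockout left of wild type in each. Mup19 was listed at 0 in the 3 wild-type livers of the active phase and in knockout ZT8, and Mup12 was lowest in the same 4 livers.

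Rpl23a-ps3 (chr14:34170655-34171122, plus strand), a pseudogene copy of the ribosomal protein gene Rpl23a, was the fourth gene past the threshold. It was listed at 171.8, 221.5 and 251.7 normalized counts in the knockout livers and at 0 in all 3 wild-type livers (limma adjusted p 0.0105). In the rest phase it was listed at 0, 270.7 and 0 in the knockout livers of ZT4, ZT8 and ZT12, and at 0 in the wild-type livers. It was therefore seen in 4 of 6 knockout livers and in 0 of 6 wild-type livers. Of its stretches of 100 bases, 72.9% also occur in Rpl23a and 26.83% are unique, so its count depends on how reads were shared out. Without the ZT20 pair its adjusted p was 0.0934.

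Beyond the 4 calls, 106 genes were at least 1 log2 unit higher in the knockout in 3 of 3 pairs (0.569%) and 73 at least 1 log2 unit lower (0.392%). For 805 genes every knockout liver was above every wild-type liver (4.32%), and for 841 every knockout liver was below (4.52%). Apart from Nudt12, none of the genes named in this and the next 2 paragraphs passed the threshold, with limma adjusted p-values of 0.164 to 0.936. Kctd15, an adaptor of the BTB-domain family, was listed at 30.1, 24.003 and 21.4 normalized counts in the knockout livers, against 164.4, 170.5 and 161.0 in the wild-type livers. The groups were tight and apart (log2 difference -2.68, SE 0.25, adjusted p 0.164). In the rest phase it was listed at 200.1, 26.04 and 207.5 in the knockout livers of ZT4, ZT8 and ZT12, against 20.05, 28.2 and 20.4 in the wild-type livers. Kctd15 was thus high in 3 wild-type livers of the active phase and in 2 knockout livers of the rest phase, and low in the other 7, a grouping that again crosses genotype.

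Other genes with lower levels in 3 of 3 pairs included Piezo1, a mechanically gated ion channel, at 21.7, 31.8 and 16.2 in the knockout livers, against 50.02, 99.0 and 109.4 in the wild-type livers. Sh3bp2, a signalling adaptor, was listed at 95.4, 85.5 and 66.6 in the knockout livers and at 191.4, 763.7 and 453.3 in the wild-type livers. For both genes the groups did not overlap. Haus8, of the augmin complex of the spindle, had a log2 difference of -1.63 (SE 0.24), Kif2a, a microtubule-depolymerizing kinesin, -1.43 (SE 0.24), Psd4, an exchange factor for ARF6, -2.61 (SE 0.44), and Mtmr7, a phosphoinositide phosphatase, -1.29 (SE 0.26). B3galnt1, a glycosyltransferase, stood at -1.96 (SE 0.59), and Zfand2a, a stress-induced zinc finger gene, at -3.21 (SE 0.96), with knockout ZT16 listed at 0. Rest-phase log2 differences at ZT4, ZT8 and ZT12 were -0.39, 2.44 and -0.93 for Haus8 and 1.66, 3.03 and 0.47 for Kif2a. They were 0.10, 0.65 and -1.11 for Psd4 and 0.84, 0.39 and -0.004 for Mtmr7.

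Among genes with higher levels in 3 of 3 pairs, the cation channel gene Trpm2 was listed at 159.3, 147.4 and 117.9 in the knockout livers, against 62.1, 42.0 and 41.9 in the wild-type livers. The groups did not overlap (log2 difference 1.54, SE 0.23). Mme, the peptidase neprilysin, was listed at 268.2, 1491 and 1541 in the knockout livers and at 86.0, 525.6 and 62.5 in the wild-type livers, and here knockout ZT0 lay below wild-type ZT16. Cyp2c40, a cytochrome P450 that shares part of its sequence with other Cyp2c genes, had a log2 difference of 2.40 (SE 0.33), and Moxd1, a monooxygenase, 2.78 (SE 0.39). Vmn2r120, a vomeronasal receptor gene, was listed at 135.7, 169.7 and 102.8 in the knockout livers, against 58.5, 67.7 and 43.7 in the wild-type livers. It lies at chr17:57506453-57545505, on the same chromosome as Nudt12 (chr17:58999618-59013372), and the part of this position in its values was not tested. In the rest phase Moxd1 ran from 1.03 to 309.8 in the knockout livers and from 2.25 to 473.1 in the wild-type livers, a wider spread than between the genotypes here. Rest-phase log2 differences at ZT4, ZT8 and ZT12 were 0.28, 0.19 and -2.78 for Cyp2c40 and 0.53, -0.09 and -2.92 for Mme. Of the 20 genes plotted, which were chosen on the active-phase pairs, Nudt12 was lower at all 6 times. 347 of the 18622 genes tested (1.86%) were lower at all 6 times and 298 (1.6%) higher, so this pattern is not particular to Nudt12.

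**Figure D3:**
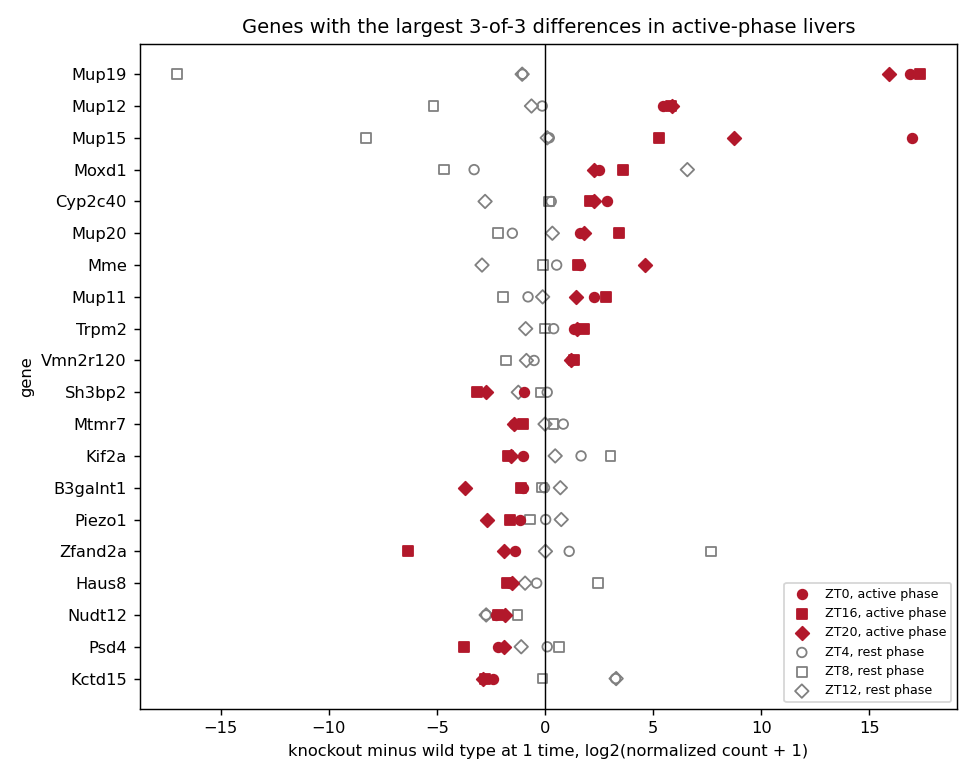
Log2 difference of knockout minus wild type at each time for the 10 protein-coding genes in each direction with the largest smallest-of-3 pair difference, filled red symbols for the 3 active-phase pairs and open grey symbols for the 3 rest-phase pairs. Nudt12 was below 0 at all 6 times, while Mup19 was at -17.04 and Mup12 at -5.16 at ZT8.

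No core clock gene passed the test at matched times. Of 23 core clock genes, 0 passed the threshold (limma), 1 had an unadjusted p under 0.05 (all genes 5.28%), 13 had a higher and 10 a lower fitted level, and the median log2 difference was 0.03. Arntl was listed at 557.4, 237.2 and 457.6 normalized counts in the knockout livers of ZT0, ZT16 and ZT20, against 638.3, 171.1 and 448.7 in the wild-type livers. Its level was lowest at ZT16 in both genotypes, and the log2 difference was 0.10 (SE 0.18). Per2, a repressor of the loop, was listed at 170.4, 771.7 and 513.2 in the knockout livers, against 78.2, 630.6 and 420.9 in the wild-type livers. It was higher in 3 of 3 pairs but overlapped between the groups (log2 difference 0.56, SE 0.21, unadjusted p 0.0378, limma adjusted p 0.936). Dbp, an output factor, was listed at 17.7, 87.4 and 28.8 in the knockout livers and at 12.4, 124.8 and 36.4 in the wild-type livers. Dbp, Per3, Nr1d2 and Ciart were highest at ZT16 of these 3 times in both genotypes. Nr1d2, for the repressor REV-ERB beta, was listed at 131.5, 1102 and 382.2 in the knockout livers, against 335.1, 866.8 and 261.6 in the wild-type livers. Usp2, a rhythmic deubiquitinase, had a log2 difference of -0.54 (SE 0.26), Csnk1e, a kinase of the PER proteins, -0.83 (SE 0.43), and Tef, a relative of Dbp, 0.28 (SE 0.17). The SEs of the clock genes ran from 0.11 to 0.55 over 3 pairs. In the same fit Nudt12 at -2.10 (SE 0.15) passed only narrowly (limma adjusted p 0.0446). Kctd15 at -2.68 (SE 0.25) did not pass (limma adjusted p 0.164). A shift of a single clock gene could thus be many times its SE and still not be called.

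**Figure D4:**
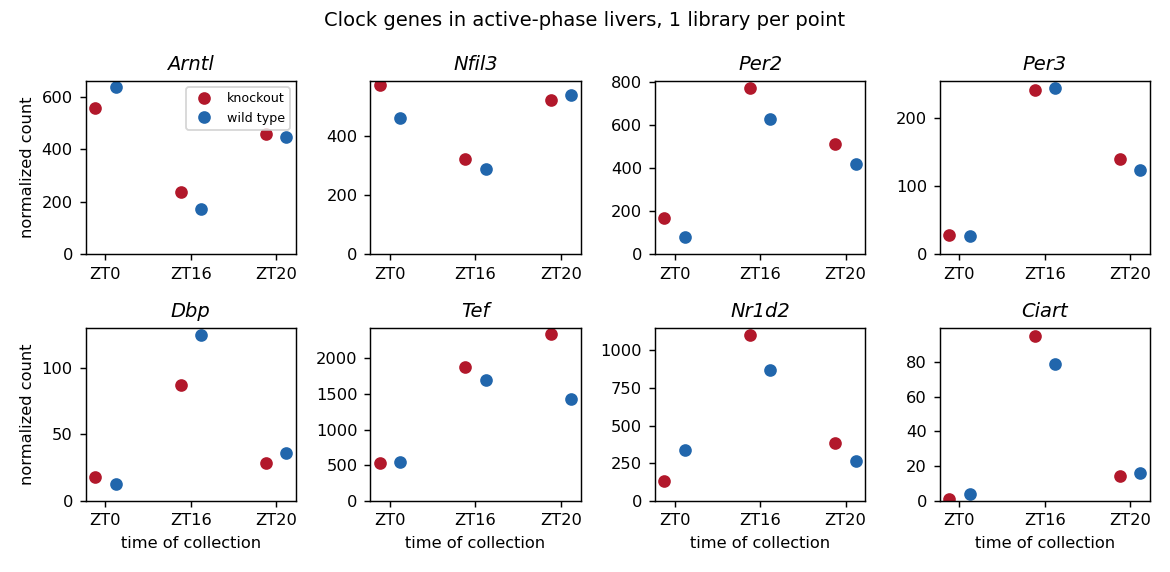
Normalized counts of 8 clock genes at the 3 active-phase times, 1 liver library per point, knockout in red left of wild type in blue. Arntl was lowest at ZT16 in both genotypes, at 237.2 in the knockout and 171.1 in the wild type.

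Of the 24 pathway lists, the major urinary proteins were the only one with members past the threshold (limma; 21 tested, 14 higher, 7 lower, median 0.56). The others are described by counts and medians. For all genes, 49.6% had a higher and 50.4% a lower fitted level. By pair, 8796, 9104 and 9208 of the 18622 genes tested were higher in the knockout at ZT0, ZT16 and ZT20. Genes of NAD synthesis and use, the substrate side of NUDT12, were lower for 22 of 32 (median log2 difference -0.08). In 3 of 3 pairs 8 were lower (all genes 12.9%) and 5 higher (all genes 11.5%). Nampt, the rate-limiting enzyme of NAD salvage and a rhythmic gene, was listed at 777.4, 1878 and 1312 normalized counts in the knockout livers, against 1334, 3130 and 1672 in the wild-type livers. It was lower in 3 of 3 pairs, with groups that overlapped (log2 difference -0.62, SE 0.13, unadjusted p 0.00334, limma adjusted p 0.936). Acmsd, which diverts tryptophan breakdown away from NAD, had a log2 difference of 0.47 (SE 0.18), and Bst1, an NAD glycohydrolase at low counts, -1.61 (SE 0.52). Of 29 other nudix and decapping genes, 17 were lower (median -0.07), with the exonuclease gene Xrn2 at -0.32 (SE 0.12). Of 34 peroxisomal genes, 20 were lower (median -0.02), and Acox2, an oxidase of bile acid intermediates, was listed at 2639, 1910 and 2277 in the knockout livers, against 3272, 3266 and 3159 in the wild-type livers. The groups did not overlap (log2 difference -0.52, SE 0.13, limma adjusted p 0.936).

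Bile acid genes were split, 7 higher and 8 lower of 15 (median -0.04). Cyp7a1, the rate-limiting enzyme of the classical route, was listed at 1344, 5031 and 5228 in the knockout livers, against 3653, 10736 and 6702 in the wild-type livers. Cyp8b1, which makes cholic acid, was listed at 2952, 2259 and 3673 in the knockout livers and at 4749, 3217 and 5735 in the wild-type livers. Both were lower in 3 of 3 pairs, at -0.96 (SE 0.21, unadjusted p 0.00384) and -0.61 (SE 0.10, unadjusted p 0.00106), and their groups overlapped. Cyp7b1, of the alternative route, had a log2 difference of 0.38 (SE 0.13) in the other direction. The limma adjusted p-values of these 3 genes were 0.8 to 0.936.

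Lipid-making genes were lower for more members than not. Of 21 genes of fatty acid synthesis 16 were lower (median -0.16), with 7 lower (all genes 12.9%) and 1 higher (all genes 11.5%) in 3 of 3 pairs. Their regulator Srebf1 was listed at 861.8, 1247 and 927.9 in the knockout livers, against 1156, 2206 and 1119 in the wild-type livers, with overlapping groups (log2 difference -0.51, SE 0.14). Of 22 genes of cholesterol synthesis 19 were lower (median -0.19), but the median was 0.14 at ZT0, -0.09 at ZT16 and -0.67 at ZT20. Hmgcs1, an early enzyme of the pathway, was listed at 8343, 2036 and 3214 in the knockout livers and at 10921, 2319 and 5971 in the wild-type livers. Of 36 xenobiotic genes 26 were lower (median -0.25), 13 of them in 3 of 3 pairs (all genes 12.9%) and 10 with an unadjusted p under 0.05 (all genes 2.7%). Among these, Nr1i3, the receptor CAR, stood at -0.37 (SE 0.12), Gstm1, a glutathione transferase, at -0.33 (SE 0.10), and Cyp2b9 at -2.68 (SE 0.72). Members of 1 pathway are not independent of each other, and no test of a list was made.

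Genes of fasting and insulin signalling had a higher fitted level for 15 of 20 (median 0.07), and the pairs differed, with 6 higher at ZT0 (median -0.33), 16 at ZT16 (0.46) and 10 at ZT20 (0.00). Irs2, an insulin receptor substrate that rises in fasting, was listed at 124.8, 193.6 and 400.1 in the knockout livers, against 103.2, 78.9 and 228.8 in the wild-type livers (log2 difference 0.79, SE 0.24). Gys2, the liver glycogen synthase, was lower in 3 of 3 pairs, at 1164, 4265 and 1965 in the knockout livers, against 1908, 4282 and 2850 in the wild-type livers (log2 difference -0.42, SE 0.16). Neither passed the threshold. PPARalpha targets were split, 15 higher and 16 lower (median -0.01), with 8, 21 and 16 of 31 higher at ZT0, ZT16 and ZT20, and so were sex-biased liver genes, 11 and 11 (median -0.01). Of 26 genes of the urea cycle and amino acid breakdown 20 had a lower fitted level (median -0.05), but 7 were higher in the knockout at ZT0, 18 at ZT16 and 8 at ZT20. Glucocorticoid targets had a higher fitted level for 11 of 15 (median 0.11), but by pair 8, 7 and 6 of them were higher at ZT0, ZT16 and ZT20. Fitted levels were higher for 12 of 20 genes of the integrated stress response (median 0.06), 15 of 22 heat shock chaperones (median 0.08) and 10 of 20 chaperones of the endoplasmic reticulum (median 0.00). Immediate early genes had a lower fitted level for 10 of 16 (median -0.09; 0.36 at ZT0, -0.08 at ZT16 and -0.35 at ZT20), and 2 of 3 cold-inducible RNA-binding genes were lower (median -0.11).

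In other lists too the pairs differed from each other. Of 27 acute-phase genes, secreted by liver in inflammation, 26 were higher in the knockout at ZT0, 13 at ZT16 and 8 at ZT20. The serum amyloid gene Saa1 was listed at 1154, 453.6 and 335.5 in the knockout livers, against 320.3, 321.8 and 280.1 in the wild-type livers. Cell cycle genes had medians of 0.52 at ZT0, -0.06 at ZT16 and 0.01 at ZT20. Interferon response genes had positive medians at ZT0 (0.52) and ZT20 (0.20) and a negative one at ZT16 (-0.21), with 24, 6 and 15 of 25 higher at ZT0, ZT16 and ZT20. In the ZT0 pair the knockout library also held the adrenal and fat transcripts given above, whose part in these values was not tested. The 13 mitochondrially encoded mRNAs had medians of -0.66 at ZT0, 0.45 at ZT16 and 0.14 at ZT20. Mitochondrially encoded genes took 6.72, 15.13 and 15.5% of the knockout libraries, against 8.58, 12.43 and 12.2% of the wild-type libraries. Each time had 1 library per genotype, so a difference at 1 time has no replicate check.

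**Figure D5:**
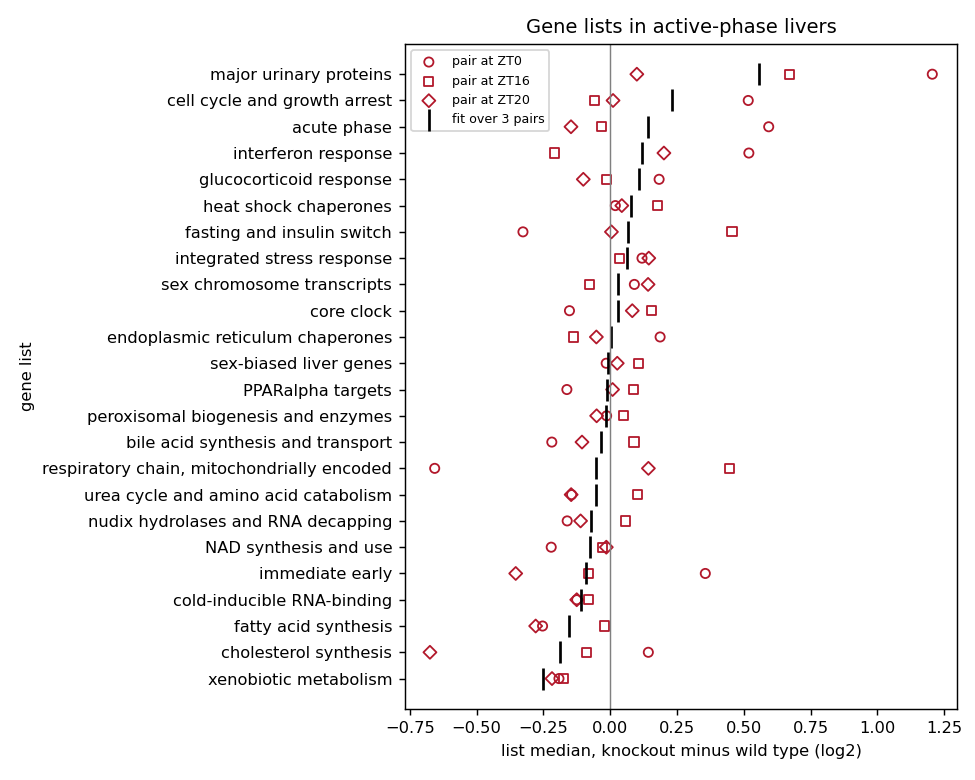
Median log2 difference of knockout minus wild type over the members of each pathway list, open symbols for the pairs at ZT0, ZT16 and ZT20 and black bars for the fit over the 3 pairs. The major urinary proteins had the highest median at 0.56, and the xenobiotic list the lowest at -0.25.

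Markers of other cells were compared in the same way. Genes were tested if their mean over the 6 libraries was at least 1. Markers near 0 in the wild-type livers thus entered only through the knockout livers. Counts and medians of such lists are therefore partly set by this filter. Of 36 secreted acinar genes listed, 32 were tested and 32 had a higher fitted level in the knockout (median 4.88). The medians by pair, however, were -3.10 at ZT0, 8.46 at ZT16 and 10.31 at ZT20. No secreted acinar gene passed the threshold (limma), and 3 had an unadjusted p under 0.05 (all genes 5.28%). Intracellular acinar genes were higher for 9 of 11 (median 1.12), with medians by pair of -0.53 at ZT0, 1.16 at ZT16 and 3.80 at ZT20. Of 14 islet genes listed, 7 were tested and 6 were higher (median 1.99). Their medians by pair were 0.00 at ZT0, 1.16 at ZT16 and 2.68 at ZT20. Chga and Chgb stand in both the islet and the adrenal list. The islet hormone gene Ins2 was listed at 0, 2.56 and 16.7 in the knockout livers and at 0 in the wild-type livers. Without the ZT0 pair, 42 genes passed in place of 4, 32 of them higher, and 26 of the 42 belonged to the pancreatic lists. The 11 adrenal genes tested had a median of 2.42 over the fit, with 5.36 at ZT0 and 0.00 at both other times. Skeletal muscle genes were higher for 8 of 8 (median 1.90) over the fit but for 7, 8 and 2 of 8 at ZT0, ZT16 and ZT20. They summed to 53.8, 125.1 and 10.5 in the knockout libraries, against 19.2, 7.13 and 7.80 in the wild-type libraries, and were far more abundant at ZT4, at 1016 in the knockout and 642.9 in the wild type. Among them, Ckm was listed at 5.9, 6.1 and 0 in the active-phase knockout livers and at 0 in the wild-type livers. Ckm thus passed the filter through the knockout livers alone. Medians for cells of the liver were -0.01 for hepatocyte genes (13 tested), -0.03 for Kupffer cell and macrophage genes (12, of which 12, 0 and 3 were higher at ZT0, ZT16 and ZT20), -0.05 for sinusoidal endothelium (10), -0.05 for duct cells (10) and 0.16 for stellate cells and fibroblasts (10). Lymphocyte and plasma cell genes had a median of -0.42 (12 tested), neutrophil genes -0.38 (4), erythroid genes -0.32 (7), gut epithelium genes -0.36 (3) and kidney genes, also a list added after the values were seen, 0.15 (2). Of sex chromosome transcripts, 5 of 6 had a higher fitted level (median 0.03), and the Y-linked Ddx3y stood between 1318 and 1661 normalized counts in all 6 libraries.

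Whether the effect of the knockout differed between the active and the rest phase was tested as an interaction over the 12 livers. Of 18702 genes, 0 passed (0.0%, limma), and 924 had an unadjusted p under 0.05 (4.94%).  The genes with the smallest p were Mup14, Mup12, Mup11, Mup16 and Vmn2r120, with adjusted p-values of 0.273 for Mup14 and 0.625 for the others. The count was 20 without the ZT0 pair, of which 16 were in the pancreatic lists, 1 without ZT20 (Mup14) and 3 without ZT8 (Kctd15, Mup19 and Mup12). Mup14 was higher in the knockout in all 3 active-phase pairs, by 2.01, 2.41 and 1.02 log2 units at ZT0, ZT16 and ZT20, and lower in all 3 rest-phase pairs, with log2 differences of -1.54, -1.59 and -1.01 at ZT4, ZT8 and ZT12.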

How the data were processed

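Ribosomal RNA was removed from 500 ng of liver RNA, and stranded libraries were read from one end over 100 bases, per the labels' protocols. The authors deposited normalized estimated counts per gene, a signal that is never negative, in 1 table of 50765 genes for the time course, per the file headers. The submitters' processing notes name DESeq2 1.24.0, DESeq, Salmon 0.12.0, the build GRCm38 and R 3.6.0, without their roles. Depth is unknown because the values are normalized, so its effect on low genes cannot be given. The other deposited tables were not used here.

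Groups came from the labels. The R 4.3.3 package limma 3.58.1 compared the genotypes on log2(value + 1), with a trended prior variance, for genes whose mean was at least 1. Tests were two-sided, p-values were adjusted by Benjamini-Hochberg, and 0.05 was the threshold. Differences on this scale understate the change of low genes. The replicate block was the time of collection, since libraries with the same number share the zeitgeber time of the labels. The change of the knockout effect between phases was an interaction in the same kind of fit over 12 libraries. Coordinates, transcripts and shared stretches of 100 bases came from GENCODE vM21.

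The 24 pathway and 14 cell marker lists, the tests and the samples were chosen with earlier results of these data known. The text names Nudt12, genes past the threshold, the 10 protein-coding genes in each direction with the largest smallest pair difference (mean of at least 50, outside the pancreatic lists), clock genes, up to 4 members of other lists by p, pancreatic genes and the 5 genes with the smallest interaction p. Some results that the rule would name are not reported here. The adrenal and kidney lists, and Mup1, Mup9, Mup10, Mup-ps16, Mup-ps17, Ucp1 and the adrenal genes, were chosen after their values were seen. Alternatives were pseudocounts of 0.5 and 5, filters, scalings, no trend, no block, a spread shared over 12 libraries, and pairs or gene groups left out. The scripts were tested on simulated data.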

Additional observations from a re-analysis of the deposited data

Results flagged for a closer look

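For 21 of the genes reported here, all 3 active-phase pairs ran one way and all 3 rest-phase pairs the opposite way. The share of all genes with this pattern was not counted, so the 21 have no background to be compared with. Many of them were named for their active-phase differences or their interaction p, or after their values were seen, so selection favoured the pattern. The major urinary protein genes among them share sequence and are not separate observations. Values are the log2 difference of knockout minus wild type in the active phase minus that in the rest phase, with adjusted p-values from limma's interaction test, in which 0 of 18702 genes passed and 924 had an unadjusted p under 0.05.

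Among major urinary protein genes the change was 23.09 for Mup19, 7.69 for Mup12, 3.20 for Mup14, 3.13 for Mup11, 1.60 for Mup16 and 0.96 for Mup7, with 9.57 and 5.65 for the pseudogenes Mup-ps17 and Mup-ps16. It was -3.67 for Mup9, -3.44 for Mup1 and -1.15 for Mup10. The adjusted p-values in the family ran from 0.273 for Mup14 to 0.914 for Mup7. The value of Mup19 rests on libraries listed at 0 and on the pseudocount.

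Positive changes outside that family were 2.89 for Cdk1, a cell cycle kinase, 2.31 for Phgdh, of serine synthesis, 2.30 for Vmn2r120 and 0.45 for Bst2, an interferon target. Their adjusted p-values were 0.866 for Cdk1, 0.943 for Phgdh and Bst2, and 0.625 for Vmn2r120.

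Negative changes were -6.14 for Zfand2a, -3.46 for Orm3, an acute-phase glycoprotein, -3.15 for Kif2a, -1.17 for Igkc, an immunoglobulin chain, -1.04 for Spp1, osteopontin, and -0.77 for Hmgcs1. Their adjusted p-values ran from 0.713 for Kif2a and Orm3 to 0.943 for Zfand2a, Igkc and Hmgcs1.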

How the results depend on the processing

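The count of 4 genes held with pseudocounts of 0.5 and 5, no filter on low values, both other scalings and the pancreatic lists left out. With a mean of at least 10 it was 3 (Nudt12 adjusted p 0.064). It was 0 with no trend (1049 genes at an unadjusted p under 0.05; Nudt12 -2.10, adjusted p 0.795) and 0 with the spread shared over 12 libraries (1054 genes; Nudt12 -2.10, adjusted p 0.666). Without the replicate block of time it was 6, adding Kctd15 and Mup-ps17. Leaving out 1 pair gave 3 to 42 genes, with 42 without ZT0, 10 without ZT16 and 3 without ZT20, and a Nudt12 difference of -2.24 without ZT20 (adjusted p 0.111). With the major urinary protein genes left out, an alternative chosen after seeing the data, 1 gene passed (Rpl23a-ps3; Nudt12 -2.10, adjusted p 0.0858).

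The interaction gave 0 genes under every alternative but 3, which leave out a pair: 20 without ZT0 (16 in the pancreatic lists), 1 without ZT20 (Mup14) and 3 without ZT8 (Kctd15, Mup19 and Mup12). Without the block it also gave 0 genes. The pancreatic secreted list placed 5 active-phase libraries above every rest-phase library, and the intracellular list placed 1. For the secreted list wild-type ZT20 was above by a small margin, and nearly all of its sum was Cela1, which every liver held. The cause of these changes was not tested. Upper-quartile scaling moved the median of all genes to -0.046. Normalized values and 1 library per genotype and time limit what can be said of low genes.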
